A study of Mus musculus with 8 samples.

Results

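The genes described here are Ccl2, Ccl7, Ccl8 and Ccl12, the monocyte chemokines of the Ccl2 cluster on mouse chromosome 11. They were chosen by name: the Ensembl identifiers that carry these 4 symbols were looked up in the deposited tables, which gave 4 of 36806 gene lines. The study sequenced poly(A) RNA from macrophages grown out of C57BL/6 bone marrow for 7 days in L929-conditioned medium, which supplies the macrophage growth factor CSF1. A single culture stayed untreated, and every other culture received 1 agent for 4 h. Of the cytokines, IFNg (interferon gamma) was given at 100 ng/ml, and TNFa (tumour necrosis factor), IL1b (interleukin 1 beta) and IL4 (interleukin 4) at 10 ng/ml. TGFb1 (transforming growth factor beta) and MALP2, a lipopeptide sensed by the Toll-like receptors Tlr2 and Tlr6, were given at 1 ng/ml. CpG, unmethylated DNA sensed by Tlr9, was given at 100 nM. There were 8 libraries with 1 library in each group, so no difference below has a replicate check.

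CC chemokines are small secreted proteins named for a pair of adjacent cysteines near the start of the mature protein. They bind G protein-coupled receptors on leukocytes, and held on heparan sulphate they form gradients along which the cells move. CCL2, CCL7 and CCL12 are ligands of CCR2, the receptor through which classical monocytes leave the bone marrow and enter inflamed tissue. CCL7 also binds CCR1 and CCR3, and mouse CCL8 is known chiefly as a ligand of CCR8. Macrophages are among the main sources of these ligands in tissue.

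In mm9, the build of the deposited loci, the members are on chromosome 11 in the order Ccl2, Ccl7, Ccl12 and Ccl8, with 88.6 kb from the first base of the Ccl2 locus to the last base of the Ccl8 locus. Ccl2 (ENSMUSG00000035385) is at chr11:81841726-81852064, Ccl7 (ENSMUSG00000035373) at chr11:81859214-81861027, Ccl12 (ENSMUSG00000035352) at chr11:81915347-81916902 and Ccl8 (ENSMUSG00000009185) at chr11:81928687-81930301. Each gene has 3 exons in GENCODE M21. The deposited Ccl2 locus is longer than those of the other members. It overlaps Gm17268, a gene on the opposite strand that was listed at 0 FPKM in every library. Whether the counting used strand is not given in the sources used here. The coding sequences below run from the start codon to 24 bases past the cysteine codon pair, and they are shown because that pair, in capitals, is what defines the family. They were read from GENCODE M21.

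Ccl2: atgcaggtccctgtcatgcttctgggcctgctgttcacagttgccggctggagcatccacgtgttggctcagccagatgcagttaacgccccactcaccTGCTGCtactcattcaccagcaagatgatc
Ccl7: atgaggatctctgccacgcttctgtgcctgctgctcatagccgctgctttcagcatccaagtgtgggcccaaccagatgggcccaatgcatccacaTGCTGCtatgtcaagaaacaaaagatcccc
Ccl8: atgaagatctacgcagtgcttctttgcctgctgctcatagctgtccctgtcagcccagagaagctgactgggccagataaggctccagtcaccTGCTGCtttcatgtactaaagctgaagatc
Ccl12: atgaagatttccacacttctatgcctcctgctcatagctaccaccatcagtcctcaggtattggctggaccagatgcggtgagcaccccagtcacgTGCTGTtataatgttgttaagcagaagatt

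The 4 whole coding sequences were 444 bases long for Ccl2, 291 for Ccl7, 291 for Ccl8 and 312 for Ccl12. Where bases were paired in the alignment, Ccl8 and Ccl12 had the same base at 72.5% of positions. The values were 71.1% for Ccl7 with Ccl12 and 70.9% for Ccl7 with Ccl8. Ccl2 had 78.6% with Ccl7, 75.9% with Ccl8 and 74.3% with Ccl12. Each gap base was charged alike, so the gaps that the longer Ccl2 needs could fall wherever they gained matches. The Ccl2 values are therefore not comparable with those of the other pairs. Over all alignment columns, gaps included, Ccl7 and Ccl8 were highest at 66.7%. Ccl2 had 51.2% with Ccl7, 51.9% with Ccl12 and 49.4% with Ccl8, values lowered by its greater length. The longest run of bases shared by the transcripts of any pair was 23, between Ccl2 and Ccl7. How the authors' counting treated reads that match more than 1 gene is not given in the sources used here.

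Promoter sequence was present in the RefSeq table (GRCm38.p6) for 2 of the 4 members, Ccl8 and Ccl12; Ccl2 and Ccl7 had no entry. The 250 bases before each start are shown because these neighbouring genes part with most agents. As described below, Ccl12 but not Ccl8 was at least 2-fold higher with IL4, CpG, MALP2, TNFa and IL1b. Capitals mark TATAAA. Their coordinates are of GRCm38, a later build than that of the loci above. The Ccl8 sequence is chr11:82114935-82115184 and the Ccl12 sequence is chr11:82101595-82101844, both on the plus strand.

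Ccl8: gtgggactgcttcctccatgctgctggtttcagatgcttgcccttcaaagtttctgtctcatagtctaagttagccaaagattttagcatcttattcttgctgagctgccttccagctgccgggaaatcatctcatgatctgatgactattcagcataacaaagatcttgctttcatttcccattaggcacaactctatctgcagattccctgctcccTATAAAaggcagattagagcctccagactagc
Ccl12: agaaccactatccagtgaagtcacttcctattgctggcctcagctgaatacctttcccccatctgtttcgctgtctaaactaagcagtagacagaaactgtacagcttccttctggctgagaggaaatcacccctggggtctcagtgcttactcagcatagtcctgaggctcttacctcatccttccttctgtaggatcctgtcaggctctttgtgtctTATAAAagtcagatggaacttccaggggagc

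TATAAA began 32 bases before the start of Ccl8 and 31 bases before that of Ccl12, and windows of the same length held it in 13% of 27025 promoters. The 2 promoters matched at 57.5% of 266 aligned columns and shared no run longer than 8 bases. Both strands of both windows were also searched for GGG followed after any 5 bases by CC, a form of the NF-kappa B site found in 45.4% of promoters, and for TGANTCA, the AP-1 site found in 6.87%. The other patterns were those of STAT and interferon response factors: TTCNNNGAA (7.18% of promoters), the same ends TTC and GAA with 4 bases between them (5.86%), and a pair of GAAA with 2 bases between them (3.04%). None of these 5 patterns was present in either window, which says only that these letters are not in these bases.

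Levels are given as FPKM, fragments scaled by transcript length and by the library's total. The authors scaled each agent's table separately, together with the untreated library, so the tables were joined here by the 1 factor by which their untreated values differ (0.946 to 1.04). Values in parentheses are the authors' lower and upper confidence bounds within 1 library. Folds and log2 changes were taken within each agent's own table as (stimulated FPKM + 1) over (untreated FPKM + 1), a scale that understates changes of low values. No counts were available, so absolute depth is unknown. The FPKM that a single read added, read off the lowest values, was 2.035 times the untreated figure with IFNg and 1.05 to 1.44 times with the other agents. Relative depth was therefore lowest with IFNg.

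Macrophage identity was checked by markers. All 7 readable macrophage markers of 8 listed were above 1 FPKM in at least 1 library, and their summed FPKM was 5278.5 in the untreated library, 6613 with IFNg and 4045 to 7028 in the other 6. Single markers moved in opposite directions within this sum. With MALP2, Mertk went from 23.1 untreated to 1.17 FPKM and Cd14 from 424 to 2319, while 5 of the 7 stayed within 2-fold. The T and NK cell markers were under 1 FPKM in all 8 libraries for 6 of 6 genes. Summed stromal markers (7 of 10 above 1 FPKM somewhere) were 70.7 FPKM untreated, 149.8 with IFNg and 72.1 to 83.2 with the other agents. Most of that came from the matrix genes Sparc (28.0 untreated, 59.9 with IFNg) and Col1a2 (23.1 and 49.1), while Pdgfra, Lum and Thy1 were under 1 FPKM in all 8 libraries. Monocyte markers summed to 90.9 untreated, 142 with IFNg and 29.6 to 52.5 with the other agents. Neutrophil markers summed to 263 untreated, 416 with IFNg and 153 to 353 otherwise, and endothelial markers to 43.7, 56.9 and 24.3 to 35.3. Mast cell markers (2.72, 7.19 and 0.628 to 5.95), dendritic cell markers (2.04, 4.06 and 1.65 to 3.12), B cell markers (7.86, 2.29 and 1.65 to 2.92) and T and NK cell markers (0.412, 0.378 and 0.246 to 0.838) were low. These non-macrophage sums were therefore highest in the IFNg library for stromal, monocyte, neutrophil, endothelial, mast and dendritic cell markers, and their part in the IFNg results below was not tested. Some of these sums rested largely on 1 gene, and not every listed marker followed its sum. With IFNg, Hdc gave 6.75 FPKM of the mast cell sum, while Kit went from 2.06 untreated to 0.420. Vwf gave 50.2 of the endothelial sum, while Kdr went from 6.15 to 4.83. Among dendritic cell markers Clec9a gave 1.92, while Siglech went from 0.863 to 0.486. The monocyte marker Ccr2 went from 35.5 to 20.55. In RNA from a whole culture, a change in the number of cells of a type and a change in RNA per cell cannot be told apart.

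All 4 members were above 1 FPKM in all 8 libraries, so none was lost to the floor of 1 FPKM. Ccl2 and Ccl7 were at least 2-fold higher than untreated with 7 of 7 agents, Ccl12 with 6, all but TGFb1, and Ccl8 with IFNg alone. That makes 21 of 28 pairs of gene and agent, and no pair was at least 2-fold lower on the FPKM + 1 scale. At a pseudocount of 0.1 that count was 1, Ccl8 with TGFb1, for which the plain untreated level was 2.07 times the stimulated one. The share of all tested genes that was at least 2-fold lower was 12.7% with IFNg, 11.9% with IL4, 10.4% with TNFa, 9.15% with TGFb1, 8.57% with IL1b, 11.7% with MALP2 and 11.2% with CpG. Per agent, the 2-fold count was 4 of 4 with IFNg, where 10.7% of all tested genes were that much higher. It was 3 of 4 with IL4 (9.86% of all tested genes), TNFa (8.92%), IL1b (7.29%), MALP2 (9.53%) and CpG (9.43%), and 2 of 4 with TGFb1 (7.15%). The same 21 pairs had confidence bounds that lay apart from those of the untreated library. Across all tested genes the bounds lay apart with the stimulated value higher for 6.58% with IFNg, 6.5% with IL4, 6.36% with TNFa, 6.2% with TGFb1, 5.83% with IL1b, 5.67% with MALP2 and 6.14% with CpG. The same 21 pairs were called changed in the authors' deposited table. That table called 8.51% of tested genes higher with IFNg, 8.39% with IL4, 7.93% with TNFa, 7.64% with TGFb1, 7.1% with IL1b, 7.3% with MALP2 and 7.71% with CpG. The median log2 change of the 4 members was 6.38 with IFNg, 5.03 with IL4, 4.08 with MALP2, 4.05 with CpG, 3.37 with IL1b, 3.10 with TNFa and 1.47 with TGFb1. The median of all tested genes lay between -0.12 and -0.08. The 7 comparisons share the untreated library, so an error in its low chemokine values would enter all of them.

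**Figure D1:**
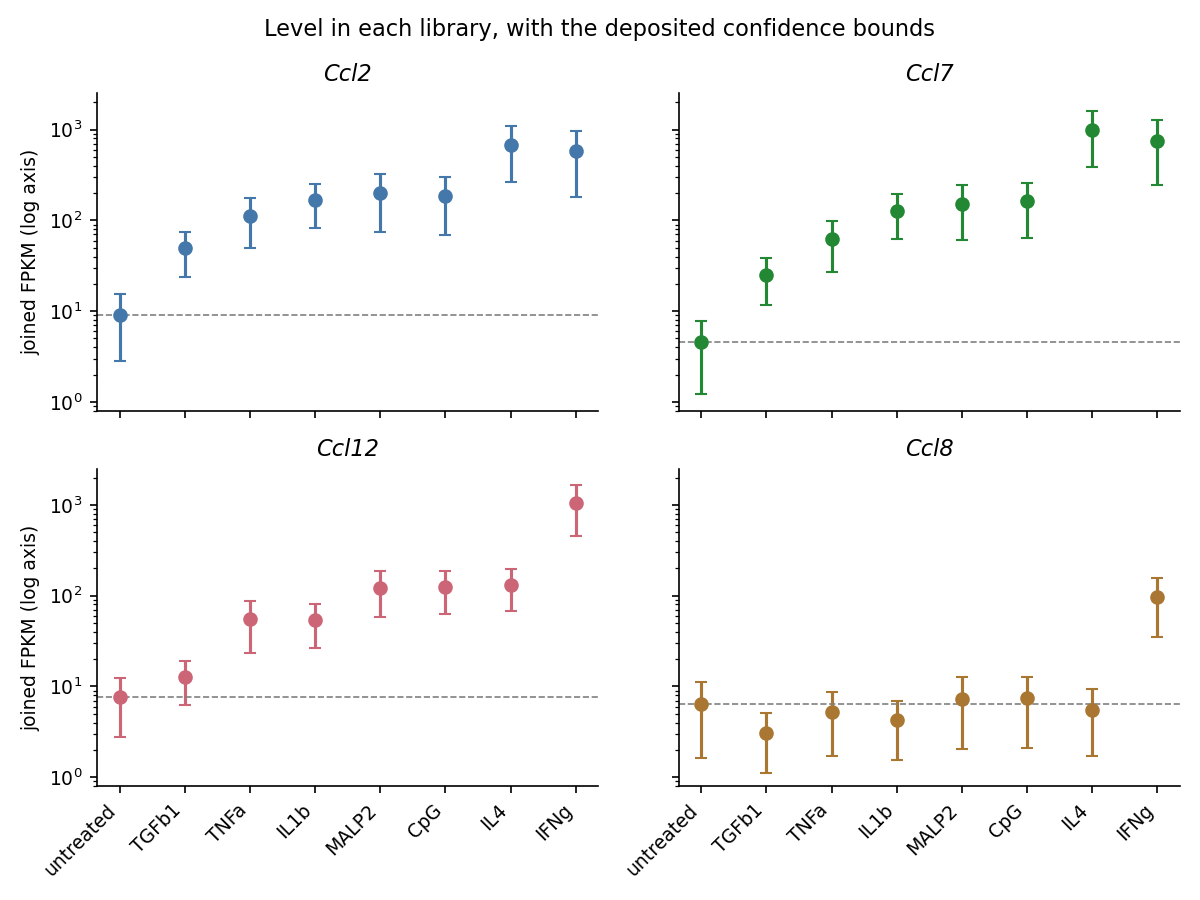
Joined FPKM of Ccl2, Ccl7, Ccl8 and Ccl12 (log axis) in the 8 libraries, with the authors' confidence bounds as bars and the untreated level as a dashed line. Ccl2, Ccl7 and Ccl12 were lowest in the untreated library, whereas Ccl8 stood at 96.5 FPKM with IFNg and between 3.09 and 7.40 in all other libraries.

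Ccl2 encodes MCP-1, the prototype CCR2 ligand. Its joined level was 9.07 FPKM (2.86 to 15.3) in the untreated library. It was 685 FPKM (265 to 1106) with IL4, 579 (181 to 976) with IFNg, 199 (75.1 to 324) with MALP2, 187 (69.8 to 303) with CpG, 167 (81.8 to 253) with IL1b, 113 (49.3 to 176) with TNFa and 49.7 (24.0 to 75.4) with TGFb1. The untreated library was lowest and its bounds lay below those of every stimulated library. The fold over untreated was 68.5 with IL4, 57.3 with IFNg, 19.9 with MALP2, 18.6 with CpG, 16.8 with IL1b, 11.3 with TNFa and 5.05 with TGFb1. In the authors' deposited table all 7 were called, and the least extreme adjusted value was that of TGFb1 (q = 0.000215). By size of change Ccl2 stood 33rd of 12908 tested genes with IL4, 43rd of 12813 with IFNg and 157th of 12847 with TGFb1.

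In the order of Ccl2 levels, bounds of neighbouring libraries overlapped at every step except that from TGFb1 down to untreated. IL4 exceeded IFNg by a factor of 1.18 and MALP2 exceeded CpG by 1.07, both within the bounds. Over wider steps the bounds parted: the IL4 level was 4.09 times that with IL1b, 6.08 times that with TNFa and 13.8 times that with TGFb1. The IFNg level was 5.13 times that with TNFa and 11.6 times that with TGFb1. The bounds lay apart in 13 of 28 pairs of libraries for this gene.

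Ccl7 encodes MCP-3, a ligand shared by CCR1, CCR2 and CCR3. Its joined level was 4.52 FPKM (1.23 to 7.81) in the untreated library. It was 984 FPKM (384 to 1584) with IL4, 757 (245 to 1269) with IFNg, 162 (64.5 to 259) with CpG, 152 (60.6 to 243) with MALP2, 128 (63.0 to 194) with IL1b, 62.6 (27.2 to 98.0) with TNFa and 25.2 (11.7 to 38.7) with TGFb1. The IL4 and IFNg levels were the highest, and the untreated bounds lay below all others. On the FPKM + 1 scale the excess over untreated was 179.8-fold with IL4, 136-fold with IFNg, 29.4-fold with CpG, 27.6-fold with MALP2, 23.5-fold with IL1b, 11.5-fold with TNFa and 4.77-fold with TGFb1. The authors' deposited table called all 7, with q = 0.00039 for TGFb1. Ccl7 was the 15th most raised of 12908 tested genes with IL4 and the 27th of 12813 with IFNg.

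Of the 28 library pairs, 19 had separate bounds for Ccl7, the most of any member. IL4 exceeded IFNg by a factor of 1.3, which was within the bounds. IL4 was above CpG by 6.09, above MALP2 by 6.49 and above IL1b by 7.67 times, with the bounds apart each time. IFNg was above MALP2 by 4.99 and above IL1b by 5.90 times, again with the bounds apart, while the 4.68-fold step from CpG to IFNg was within the bounds. TGFb1 was below every other agent: its level was exceeded 5.09 times with IL1b and 6.02 times with MALP2, both with separate bounds. The TGFb1 and TNFa bounds overlapped. Ccl7 spanned a wider range than Ccl2: its highest of 8 levels was 218 times its lowest, against 75.6 times for Ccl2.

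Ccl12 encodes MCP-5, a mouse CCR2 ligand. Its joined level was 7.57 FPKM (2.80 to 12.3) in the untreated library. It was 1048 FPKM (452 to 1645) with IFNg, 133 (67.6 to 198) with IL4, 126 (62.4 to 189) with CpG, 123 (58.1 to 188) with MALP2, 54.97 (23.1 to 86.9) with TNFa, 53.3 (26.6 to 80.0) with IL1b and 12.7 (6.29 to 19.1) with TGFb1. The IFNg library stood alone at the top and TGFb1 was within the bounds of untreated. The fold over untreated was 122 with IFNg, 15.7 with IL4, 14.8 with CpG, 14.4 with MALP2, 6.53 with TNFa, 6.35 with IL1b and 1.60 with TGFb1. TGFb1 was the only agent for which the authors' deposited table did not call Ccl12 (q = 0.405).

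The step from IFNg down to IL4, a factor of 7.90, was the first gap in the Ccl12 order with separate bounds. The second was the step from IL1b down to TGFb1, a factor of 4.21. Between these gaps IL4, CpG, MALP2, TNFa and IL1b overlapped from neighbour to neighbour. CpG exceeded MALP2 by a factor of 1.02 and TNFa exceeded IL1b by 1.03. Bounds lay apart in 17 of 28 library pairs.

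Ccl8 encodes MCP-2, best known in the mouse as a CCR8 ligand. Its joined level was 6.39 FPKM (1.63 to 11.2) in the untreated library. It was 96.5 FPKM (34.99 to 158) with IFNg, 7.40 (2.11 to 12.7) with CpG, 7.33 (2.03 to 12.6) with MALP2, 5.53 (1.71 to 9.35) with IL4, 5.24 (1.71 to 8.77) with TNFa, 4.24 (1.56 to 6.91) with IL1b and 3.09 (1.11 to 5.07) with TGFb1. Only the IFNg bounds lay apart from untreated, and those of the other 7 libraries all overlapped each other. The IFNg change was 13.1-fold (log2 change 3.71), and it was called in the authors' deposited table (q = 1.01e-06). The other log2 changes were 0.18 with CpG, 0.17 with MALP2, -0.18 with IL4, -0.25 with TNFa, -0.50 with IL1b and -0.86 with TGFb1. None of these 6 was called in the authors' deposited table, where the TGFb1 change had q = 0.312. With bounds this wide, no change of Ccl8 was detectable in these 6 libraries.

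**Figure D2:**
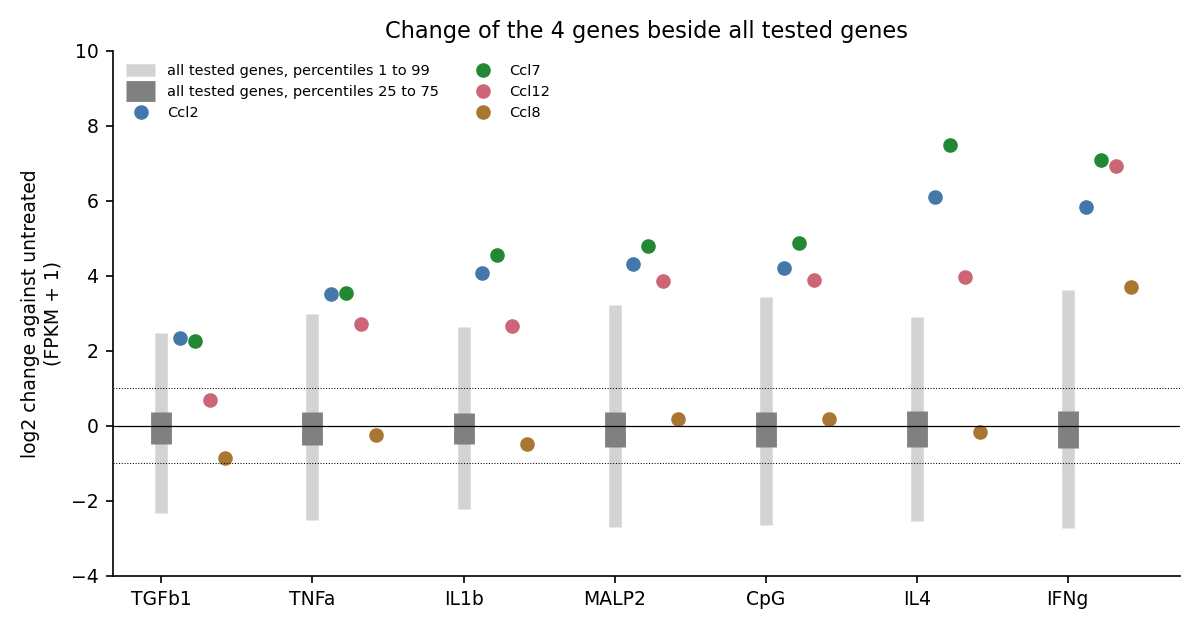
Log2 change of each member (points) after each agent against the untreated library, on the FPKM + 1 scale, beside grey bars that span percentiles 25 to 75 and 1 to 99 of all tested genes. Ccl7 with IL4 (7.49) and with IFNg (7.09) were the largest changes, and Ccl8 was below a change of 1 in size with every agent except IFNg.

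The members were also set against the other stimulated libraries rather than the untreated one. The reference for each agent was the median of the other 6 stimulated libraries. All 4 members were at least 2-fold above it with IFNg, where 7.71% of genes were and 3.5% were that much below: by log2 differences of 1.70 for Ccl2, 2.43 for Ccl7, 3.93 for Ccl8 and 3.54 for Ccl12. With IL4, where 4.88% of genes were that much higher and 5.88% lower, Ccl2 (1.95) and Ccl7 (2.80) were above it and Ccl12 (0.57) and Ccl8 (-0.16) were within 2-fold. With TGFb1, where 3.54% of genes were at least 2-fold higher and 4.03% lower, Ccl2 (-1.94), Ccl7 (-2.59) and Ccl12 (-3.20) were below it. With TNFa (1.6% of genes higher and 0.837% lower) Ccl7 (-1.31) and Ccl12 (-1.16) were below, and with IL1b (1.24% higher and 1.12% lower) Ccl12 (-1.21). With MALP2 (3.24% higher and 1.49% lower) and CpG (3.64% higher and 0.837% lower) no member differed by 2-fold, and their differences ran from 0.02 to 0.50. A median carries no bounds, and the bounds of single libraries parted only in places. Those of Ccl8 and Ccl12 with IFNg lay apart from every other library. Ccl2 bounds with IFNg overlapped those with IL4, IL1b, MALP2 and CpG. Ccl7 and Ccl12 bounds with TNFa overlapped those with IL1b, MALP2 and CpG.

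The 4 transcripts together summed to 27.5 FPKM in the untreated library. The sum was 2480.5 FPKM with IFNg and 1808 with IL4, which is 90.05 and 65.6 times the untreated sum. It was 481.5 with CpG and 481 with MALP2 (17.5 times each), 353 with IL1b (12.8 times), 236 with TNFa (8.55 times) and 90.7 with TGFb1 (3.29 times). FPKM is a per-length scale, so levels of different genes may be set side by side within a library, though only roughly here. The deposited Ccl2 locus is longer than the others, and how reads that match more than 1 gene were counted is not known. Untreated macrophages held the 4 in similar amounts: Ccl2 made up 32.9% of the sum, Ccl12 27.5%, Ccl8 23.2% and Ccl7 16.4%.

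The mixture differed between the IFNg and IL4 libraries, which had the highest sums; no test of a share was possible with 1 library each. With IFNg, Ccl12 had the largest share, 42.3% of the sum, ahead of Ccl7 (30.5%), Ccl2 (23.3%) and Ccl8 (3.89%). The IFNg bounds of Ccl12, Ccl7 and Ccl2 overlapped, so their order there is not settled. With IL4, Ccl7 held 54.4% and Ccl2 37.9%, and Ccl12 held 7.34% and Ccl8 0.306%. Per unit of Ccl7, the Ccl12 level was 1.39 with IFNg and 0.135 with IL4. In the other 5 stimulated libraries Ccl2 had the largest share: 54.8% with TGFb1, 47.9% with TNFa, 47.4% with IL1b, 41.4% with MALP2 and 38.8% with CpG. Ccl12 held 23.3% with TNFa, 25.5% with MALP2 and 26.1% with CpG, and 14.0% with TGFb1 and 15.1% with IL1b. The ratio of Ccl7 to Ccl2 was 1.31 with IFNg and 1.44 with IL4, while it was 0.498 untreated. The bounds of Ccl2 and Ccl7 overlapped in every library, so which of them was higher is not settled. Bounds did part for Ccl12 against Ccl7 and Ccl2 with IL4. Those of Ccl8 lay below the other members in every stimulated library.

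**Figure D3:**
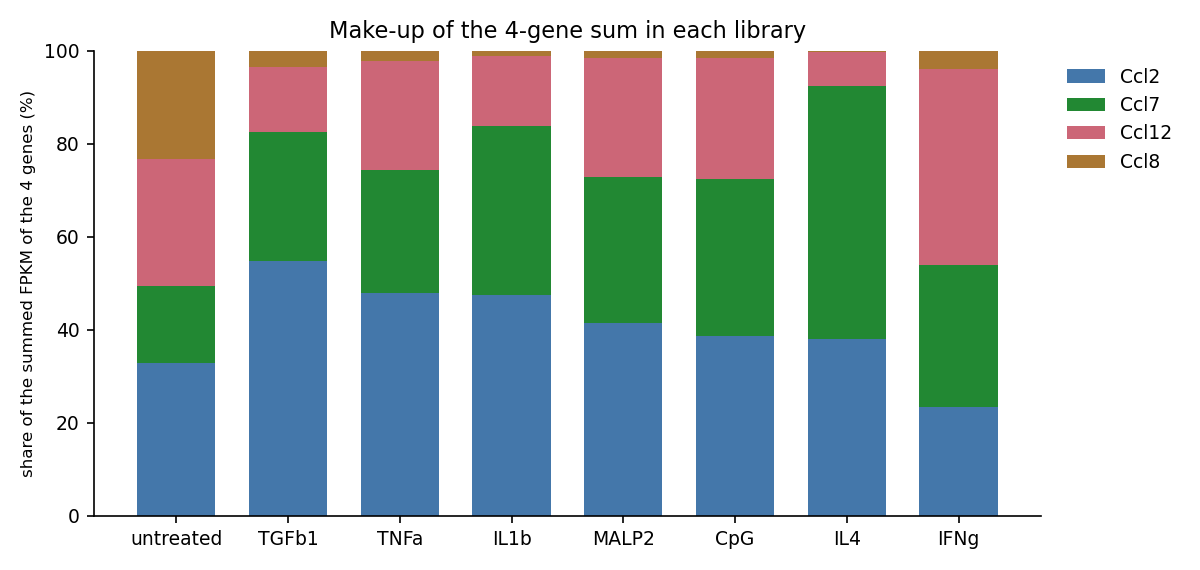
Share of each member in the summed FPKM of the 4, in percent, for the 8 libraries. Ccl12 takes 42.3% with IFNg and Ccl7 54.4% with IL4, and the share of Ccl8 goes from 23.2% untreated to between 0.306% and 3.89% in the stimulated libraries.

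The genes whose pattern over the 8 libraries was most like each member were ranked by the root mean square difference of log2(joined FPKM + 1), after each gene's own mean was removed, among 8360 genes. The nearest gene to Ccl2 was Ccl7, and the reverse held too (difference 0.52 log2 units). After Ccl7, the nearest to Ccl2 were Dok2 (0.62), an adaptor protein of tyrosine kinase signalling, Abtb2 (0.75), the gap junction gene Gja1 (0.90) and Ccl12 (0.96). After Ccl2, the nearest to Ccl7 were Ccl12 (1.04), Abtb2 (1.10), Dok2 (1.10) and Cish (1.18), a feedback inhibitor of cytokine signalling. The nearest to Ccl12 were Abtb2 (0.72), Cd274 (0.81), which encodes the checkpoint ligand PD-L1, Cdkn1a (0.90), the cell cycle inhibitor p21, Cd40 (0.94) and Ch25h (0.95), the cholesterol 25-hydroxylase. Ccl2 came 6th and Ccl7 9th in that list.

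Ccl8 had other neighbours in pattern: Gbp7 (0.31), an interferon-inducible GTPase, the cytoskeletal gene Zyx (0.35), the lipoxygenase gene Alox12 (0.35), the Fc receptor gene Fcgr4 (0.36) and Gm12185 (0.36). Gbp7 had 44.0 FPKM with IFNg and at most 1.95 FPKM in any other library, and reads may be shared within its gene family. Fcgr4 had 1163 FPKM with IFNg and at most 119.8 FPKM elsewhere. Such likeness is a description over 8 libraries, and for Ccl8 it restates the single high IFNg value. Gbp7, Alox12 and Gm12185 also reached the 10 FPKM needed to be compared only in that library. Without the IFNg library, as an alternative added after the data were seen, 0 of the 5 genes stayed among the nearest 5 for Ccl8, 1 of 5 for Ccl12, and 3 of 5 each for Ccl2 and Ccl7.

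The chemokine genes beside the members on chromosome 11 did not reach 1 FPKM. Ccl11, which encodes the eosinophil chemokine eotaxin, lies between Ccl7 and Ccl12 at chr11:81871325-81876457. It had 0.0167 FPKM untreated, 0.811 with IFNg and 0.447 with IL4. The authors' deposited table called Ccl11 with IFNg (q = 0.00341) and with IL4 (q = 0.0162), although the level was under the floor used here. Ccl1, a CCR8 ligand beyond Ccl8, was listed at 0 FPKM in 6 of the libraries, at 0.382 with TNFa and at 0.0392 with CpG. In the same stretch of chromosome, therefore, members above 100 FPKM stood next to a gene below 1 FPKM in both the IFNg and the IL4 library.

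The receptors of these ligands were measured in the same macrophages. Ccr2, the receptor of Ccl2, Ccl7 and Ccl12 products, had 35.5 FPKM untreated, 29.0 with TGFb1, 20.55 with IFNg, 19.8 with IL4, 16.7 with IL1b, 16.1 with CpG, 14.0 with TNFa and 12.7 with MALP2. All 7 stimulated levels were below the untreated one. The Ccr2 change was at least 2-fold lower with MALP2 (log2 change -1.41), TNFa (-1.28), CpG (-1.09) and IL1b (-1.04), where 11.7%, 10.4%, 11.2% and 8.57% of all tested genes were that much lower. It was smaller with IL4 (-0.81), IFNg (-0.76) and TGFb1 (-0.28). The authors' deposited table called Ccr2 with every agent except TGFb1. It called 10.4% of tested genes lower with IFNg, 10.8% with IL4, 9.94% with TNFa, 9.83% with TGFb1, 9.74% with IL1b, 10.4% with MALP2 and 10.3% with CpG.

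Ccr1, a receptor of CCL7 and of several other CC chemokines, had 3.08 FPKM untreated. It had 58.7 FPKM with IFNg, 29.9 with CpG, 28.2 with IL4, 24.6 with MALP2, 22.4 with TGFb1, 20.3 with IL1b and 15.0 with TNFa. Every stimulated level was above untreated with bounds apart, including TGFb1 (log2 change 2.53). The authors' deposited table called Ccr1 with all 7 agents. Ccr3, the eotaxin receptor that also binds CCL7, was at 0.178 FPKM untreated, 0.621 with IFNg, 6.98 with IL4, its highest level, and 1.43 to 4.2 with the other 5 agents. It was at least 2-fold higher with 6 agents, IFNg being the exception. Ccr8, the receptor linked to mouse CCL8, and the decoy receptors Ackr1 and Ackr2 were under 1 FPKM in all 8 libraries. Of these 6 receptor genes, 1 was at least 2-fold higher with IFNg, and Ccr1 and Ccr3 were with each other agent. Among all tested genes the share that much higher ran from 7.15% with TGFb1 to 10.7% with IFNg. Ccr3 was under 1 FPKM untreated and was counted only where stimulation brought it to 1 FPKM, so its part in these counts is set by the floor. The median log2 change over all 6 lay between 0 and 0.03.

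**Figure D4:**
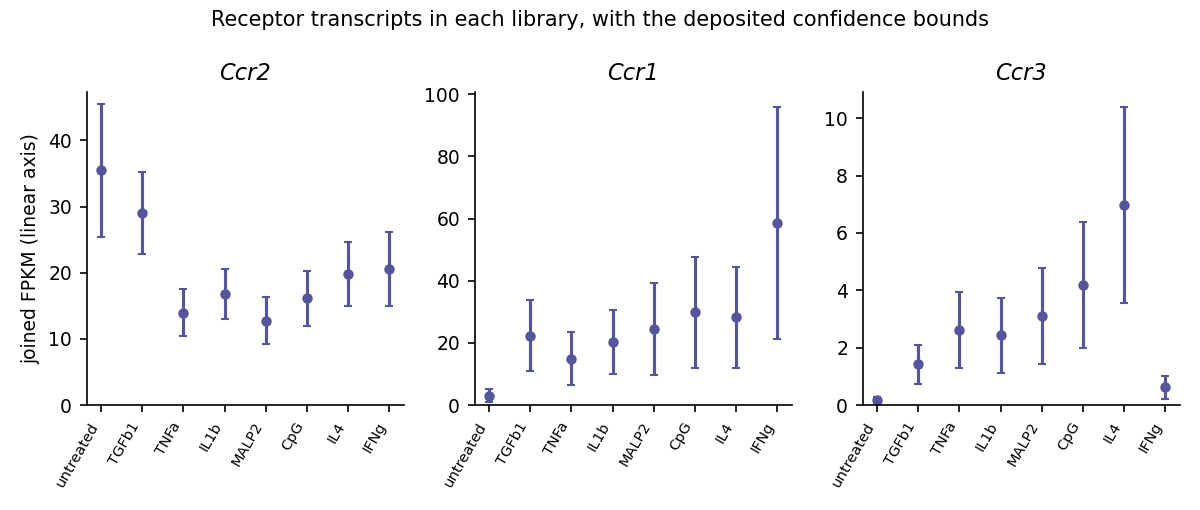
Joined FPKM of Ccr2, Ccr1 and Ccr3 (linear axes that differ in range) in the 8 libraries, with the authors' confidence bounds as bars. Ccr2 is highest in the untreated library at 35.5 FPKM and Ccr1 is lowest there at 3.08 FPKM.

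Other CC chemokines, a list of 11 genes outside the cluster, ordered the agents differently. With MALP2 and CpG, 7 of the 11 were at least 2-fold higher, and the median log2 change over all 11, low genes included, was 2.50 and 2.31. With TNFa 5 were higher (median 0.47) and with IL1b 3 (0.69). With IFNg 3 were higher and 1 lower (0.23), with IL4 2 were higher and 2 lower (0.00), and with TGFb1 0 were higher and 3 lower (-0.23). The higher counts include genes that were under 1 FPKM untreated and entered only through the stimulated library, among Ccl17, Ccl22 and Ccl24. They were 3 of the 7 with MALP2 and with CpG, 3 of 5 with TNFa, 2 of 3 with IFNg, 2 of 2 with IL4 and 1 of 3 with IL1b. At a floor of 5 FPKM the higher counts were 1 with IFNg, 1 with IL4 and 3 with TNFa. The background shares of all tested genes at least 2-fold higher are those given above, from 7.15% with TGFb1 to 10.7% with IFNg. The shares at least 2-fold lower were 12.7% with IFNg, 11.9% with IL4 and 9.15% with TGFb1. The lower counts of 1 with IFNg and 2 with IL4 are near such shares.

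Individual genes of that list show the contrast. Ccl5, the T cell and monocyte chemokine RANTES, had 23.2 FPKM untreated, 793 with CpG, 318 with IFNg and 6.29 with IL4. Ccl4, the chemokine MIP-1 beta, had 112 FPKM untreated, 2876 with CpG, 2031.5 with MALP2 and 12.6 with TGFb1. The highest Ccl24 level was with IL4, at 71.3 FPKM against 0.604 untreated (log2 change 5.53). Ccl24 encodes eotaxin-2, a CCR3 ligand. Ccl22, a CCR4 ligand, had 36.4 FPKM with TNFa against 0.730 untreated (log2 change 4.44).

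**Figure D5:**
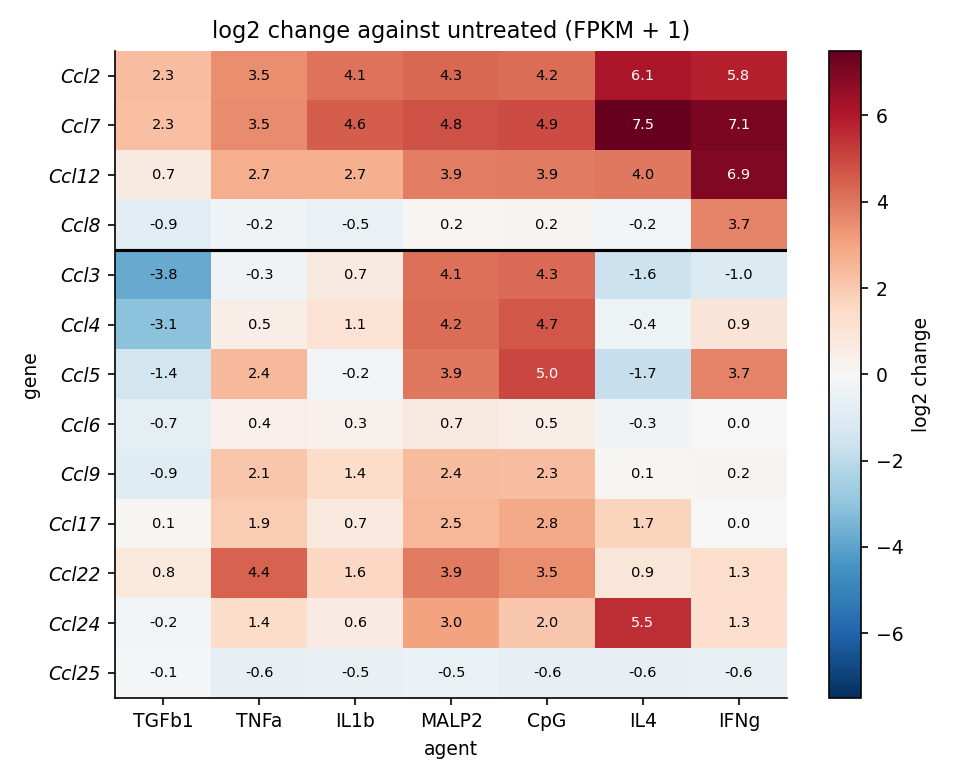
Log2 change of the members and of the other CC chemokine genes after each agent, on the FPKM + 1 scale, for genes that reached 1 FPKM in at least 1 library; red is higher and blue lower. Ccl2 and Ccl7 are above 2 with every agent, while Ccl4 and Ccl5 go from above 4 with CpG to below -1 with TGFb1 and with IL4 respectively.

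Genes that are known to act on chemokine transcription were taken as a list of 17, all measured. With IFNg 10 were at least 2-fold higher and 0 lower (median log2 change 1.37). With CpG 8 were higher and 0 lower (0.49), with MALP2 7 and 1 (0.44), with TNFa 6 and 0 (0.31) and with IL1b 6 and 1 (0.15). With IL4 1 was higher and 6 lower (-0.61), and with TGFb1 2 and 3 (-0.39). Among all tested genes, 10.7% were that much higher and 12.7% lower with IFNg, 9.43% and 11.2% with CpG, and 9.53% and 11.7% with MALP2. The shares were 8.92% and 10.4% with TNFa, 7.29% and 8.57% with IL1b, 9.86% and 11.9% with IL4, and 7.15% and 9.15% with TGFb1. Irf1, an interferon-induced transcription factor, had 80.1 FPKM untreated, 1745 with IFNg, 27.8 with IL4 and 24.3 with TGFb1. Nfkbia, an NF-kappa B target and inhibitor, had 53.4 FPKM untreated, 665.5 with CpG, 636 with MALP2, 345 with IFNg, 75.5 with TGFb1 and 52.5 with IL4. The only gene of the list at least 2-fold higher with IL4 was Nfkb1, an NF-kappa B subunit gene, with 269.75 FPKM against 70.4 untreated (log2 change 1.92); it is named here after its value was seen. The bounds of Nfkb1 lay apart, and the authors' deposited table called it. Fos, an AP-1 subunit, had 9.97 FPKM untreated, 178 with TNFa and 9.01 with IL4. Cebpb, a transcription factor of inflammatory and myeloid genes, had 19.3 FPKM untreated, 151 with CpG and 20.1 with IL4.

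Chemokine transcripts are also controlled through their stability. Of 7 listed regulators of RNA decay, 2 stood at least 2-fold above untreated and 0 as far below it with IFNg (median 0.09), 3 and 1 with IL4 (0.82), 2 and 1 with MALP2 (0.20) and 2 and 1 with CpG (0.56). The counts were 0 and 1 with TNFa (0.14), 0 and 1 with TGFb1 (0.21) and 1 and 2 with IL1b (0.08). The shares of all tested genes ran from 7.15% to 10.7% higher and from 8.57% to 12.7% lower over the 7 agents. A count of 0 or 1 of 7 is near such shares. Zc3h12a encodes Regnase-1, a nuclease that degrades inflammatory transcripts; it had 11.8 FPKM untreated, 179.5 with CpG, 159.9 with MALP2, 35.8 with IFNg and 34.4 with IL4. Zfp36 encodes tristetraprolin, which binds AU-rich elements. It had 51.4 FPKM untreated, 615 with IFNg and 91.6 with IL4. Its relative Zfp36l2 had 99.3 FPKM untreated and 18.0 with MALP2 (log2 change -2.40). Zfp36l1 had 42.2 FPKM untreated, 105 with IL4 and 14.2 with TNFa.

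Proteases trim these chemokines after secretion and some products block the receptor. In a list of 6, 3 genes were at least 2-fold higher with IFNg (median log2 change over all 6, 0.91) and with TNFa (1.21). The count was 2 with IL1b (0.83), MALP2 (0.65) and CpG (0.75), 1 with IL4 (0.18) and 0 with TGFb1 (0.46), and none was 2-fold lower. Mmp3 and Mmp9 were under 1 FPKM untreated and passed the floor only when stimulated; they gave 2 of the 3 with TNFa and 1 each with IFNg, IL1b, MALP2 and CpG. Among all tested genes 10.7% were that much higher with IFNg and 8.92% with TNFa. Mmp14, a membrane-bound metalloprotease, had 4.52 FPKM untreated, 315 with MALP2, 308 with CpG, 173 with TNFa and 5.29 with IL4. Mmp12, the macrophage elastase, had 65.9 FPKM untreated, 168 with IFNg and 156 with IL4. Mmp9, a gelatinase, had 0.745 FPKM untreated and 16.0 with MALP2, and Mmp3, a stromelysin, had 0.335 untreated and 3.18 with TNFa.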

How the data were processed

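Poly(A) RNA-seq gave 8 libraries, and the labels put 1 in each group. Per the submitters' processing notes, TopHat 1.3.1, Cufflinks 1.2.1, Cuffdiff 1.2.1 and mm9 were used; read counts, options and the use of strand: not given in the sources used here. Per the file headers, the authors deposited FPKM with lower and upper confidence bounds (level not stated) for each stimulus and the untreated library. Second tables hold the authors' deposited q-values and yes or no calls; the highest q among called genes was below 0.05. Their log2 ratio column was not used. Symbols were matched for 31840 of 36806 identifiers in GENCODE M21.

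Genes of status OK that reached 1 FPKM in either library were tested, and counted when the log2 change with a pseudocount of 1 FPKM was at least 1 in size. No p-value was computed. Named were all members, neighbours and receptors, the up to 4 genes of each other list with the largest change in any comparison, and the 5 genes most like each member among those with at least 10 FPKM in 1 library. Of the genes named by this rule, 1 is not reported here. The members and lists were chosen with earlier results of these data known. Tried as alternatives were 0.1 as the pseudocount, a floor of 5 FPKM or none, changes centred on the median gene, calls by the authors and, as reference, the median over the other 6 stimulated libraries. The counting was tested on simulated data. Python 3.11.15, numpy 2.4.6, pandas 2.3.3 and matplotlib 3.10.9 were used.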

Additional observations from a re-analysis of the deposited data

Results flagged for a closer look

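Some listed genes moved in opposite directions under different agents, each given as a log2 change against untreated; with 1 library per agent these differences were not tested. Ccl5 was higher with CpG (5.04) and lower with IL4 (-1.74), and Ccl4 was higher with CpG (4.67) and lower with TGFb1 (-3.06). Irf1 was higher with IFNg (4.43) and lower with TGFb1 (-1.68). Zfp36l1 was higher with IL4 (1.3) and lower with TNFa (-1.50). Its joined bounds with IL4 (44.6 to 166 FPKM) and with TNFa (6.27 to 22.2) both overlapped those of the untreated library (16.0 to 68.4). The bounds of Ccl5 with IL4 also overlapped the untreated ones, although the authors' deposited table called that change (q = 0.0332). The other changes of Ccl5, Ccl4 and Irf1 given here had bounds apart from untreated. With a pseudocount of 1, no member moved at least 2-fold in opposite directions; with 0.1, Ccl8 did, being lower with TGFb1 (-1.03).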

How the results depend on the processing

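No paired analysis was possible because each group held 1 library and the labels gave no replicate numbers. The counts of members at least 2-fold higher kept within 1.5 times of those reported for all 7 agents with 0.1 as the pseudocount, with the floor at 5 FPKM or absent, with changes centred on the median gene and by the authors' deposited call. A pseudocount of 0.1 made 1 member, Ccl8 with TGFb1, at least 2-fold lower (log2 change -1.03). Against the median over the other 6 stimulated libraries, by construction a different question, 0 members were higher with TNFa, TGFb1, IL1b, MALP2 and CpG, and the numbers lower were 2 with TNFa, 3 with TGFb1 and 1 with IL1b. The sign then turned for Ccl2 (-0.77), Ccl7 (-1.31) and Ccl12 (-1.16) with TNFa, for Ccl2 (-1.94), Ccl7 (-2.59) and Ccl12 (-3.20) with TGFb1, and for Ccl2 (-0.20), Ccl7 (-0.29) and Ccl12 (-1.21) with IL1b. Centring left all 28 member changes on their side of the 2-fold line. Of the other CC chemokines, the number higher was 1 instead of 3 with IFNg, 1 instead of 2 with IL4 and 3 instead of 5 with TNFa at a floor of 5 FPKM, and 1 instead of 0 with TGFb1 at a pseudocount of 0.1. The number lower with IFNg was 0 instead of 1 after centring and by the authors' deposited call. Against the other stimulated libraries, the numbers of these genes higher were 1 with IFNg, 1 with IL4, 2 with TNFa and 1 with IL1b, and the numbers lower were 4 with IFNg, 5 with IL4, 8 with TGFb1 and 4 with IL1b. The main limits are the single library per group, the low untreated levels on which every fold rests, and the unknown level of the confidence bounds.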
